A study of Mus musculus with 6 samples.

Results

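The 10 genes described here are Ppif, Slc25a1, Gfer, Dnlz, Mff, Card19, H13, H1f0, Rbm38 and Riok3, out of 22036 gene rows and 9229 genes tested. They were chosen by their normalised levels in these 6 libraries, which divide the samples across the virus groups: low in MEF2C-1, GFP-2 and GFP-3 and high in MEF2C-2, MEF2C-3 and GFP-1, where the number is the replicate. The per-library values chose the genes, so those values, the order of the libraries and the correlation between the genes are given as a description with no test. All 6 libraries came from skeletal muscle, with no muscle named, of mice labelled KO for PRR14, a nuclear protein, collected 1 month after injection of adeno-associated virus (AAV). In 3 libraries the virus carried MEF2C-GFP, a transcription factor of muscle genes together with green fluorescent protein, and in the other 3 it carried GFP. Both groups therefore share the knockout, the vector and the fluorescent protein, and no wild-type or uninjected muscle was analysed here. The age and sex of the mice, the promoter of the virus and whether replicates are separate animals are not stated in the labels. In bulk tissue, fewer cells of a type and less RNA per cell cannot be told apart.

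As background, 6 of the genes encode mitochondrial proteins. Most mitochondrial proteins are made in the cytosol and imported, and muscle fibres depend on a dense mitochondrial network for oxidative ATP supply. Ppif encodes cyclophilin D, the matrix isomerase that promotes opening of the permeability transition pore. Slc25a1 is the citrate carrier of the inner membrane, which exports citrate for lipid synthesis. Gfer is the sulfhydryl oxidase that recharges Chchd4 in the disulfide relay of the intermembrane space. Dnlz is a zinc-finger protein that keeps the matrix chaperone Hspa9 soluble. Mff is the outer membrane receptor that recruits the fission dynamin Dnm1l. Card19 is a caspase recruitment domain protein located at mitochondria. The remaining 4 act elsewhere: H13 is signal peptide peptidase, an intramembrane protease of the endoplasmic reticulum, H1f0 is a linker histone that accumulates in cells that have left the cell cycle, Rbm38 is an RNA-binding protein known as a p53 target, and Riok3 is an atypical RIO kinase of small ribosomal subunit assembly.

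Each library held between 3370833 and 3900617 listed counts and showed reads for 13001 to 13637 genes. The library totals did not follow the order of the 10 genes: GFP-1, where they were high, had the smallest total, and GFP-3, where they were low, the largest. GFP-2 stood apart in composition, with the fewest genes detected and 32.9% of its counts in its 10 most abundant genes, against 25.5% to 30.1% in the other libraries. The muscle genes Acta1 and Ckm were at 32731 normalised CPM (counts scaled to a common library size) or more in every library. Mef2c stood at 234, 196 and 371 CPM in MEF2C-1, MEF2C-2 and MEF2C-3 and at 223, 261 and 236 CPM in GFP-1, GFP-2 and GFP-3, so that MEF2C-3 alone lay above the GFP libraries, and this gene does not tell MEF2C-1 and MEF2C-2 from them. Slow-fibre genes, by contrast, summed to 1694 and 1665 CPM in MEF2C-1 and MEF2C-2 and to 422 CPM in MEF2C-3, against 199 to 265 CPM in the GFP libraries. Whether labels or libraries were exchanged was not tested, and every value here is that of the library so labelled. Prr14 had between 11 and 30 counts, which with no wild-type library does not check the knockout.

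Ppif (ENSMUSG00000021868, GRCm38 chromosome 14, 25694154 to 25700468, plus strand) had 33, 78 and 169 reads in MEF2C-1, MEF2C-2 and MEF2C-3 and 122, 25 and 39 in GFP-1, GFP-2 and GFP-3. After TMM normalisation these were 8.55, 19.4 and 40.9 CPM with the MEF2C virus and 36.1, 7.98 and 10.3 CPM with the GFP virus. MEF2C-3 and GFP-1 were alike and high, MEF2C-2 was intermediate, and the other 3 were low, so the virus groups overlapped over nearly their whole range. The highest library was 5.13 times the lowest.

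Slc25a1 (ENSMUSG00000003528, chromosome 16, 17925223 to 17928219, minus strand) had the lowest counts of the 10 genes, with 13, 61 and 76 reads in MEF2C-1, MEF2C-2 and MEF2C-3 and 49, 16 and 20 in GFP-1, GFP-2 and GFP-3. Its normalised levels were 3.37, 15.2 and 18.4 CPM in the MEF2C libraries and 14.5, 5.10 and 5.30 CPM in the GFP libraries. Here MEF2C-2 was as high as GFP-1, and MEF2C-1, not GFP-2, was lowest. It had the widest gap of the 10 genes between the libraries on either side, 2.74-fold from GFP-3 to GFP-1, and the widest range, 5.46-fold.

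Gfer (ENSMUSG00000040888, chromosome 17, 24693187 to 24696156, minus strand) stood at 14.5, 27.4 and 37.0 CPM in MEF2C-1, MEF2C-2 and MEF2C-3 and at 33.5, 12.4 and 15.4 CPM in GFP-1, GFP-2 and GFP-3. Its profile was the closest to the mean of the other 9 genes. Dnlz (ENSMUSG00000075467, chromosome 2, 26348121 to 26352110, minus strand) stood at 24.9, 62.0 and 73.6 CPM and at 60.1, 16.0 and 24.6 CPM in the same libraries. In Dnlz the 3 high libraries lay close together and GFP-2 stood below MEF2C-1 and GFP-3, which were level. Both genes serve import: Gfer on the intermembrane space side and Dnlz on the matrix side.

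Mff (ENSMUSG00000026150, chromosome 1, 82724890 to 82752394, plus strand) stood at 33.4, 66.0 and 80.1 CPM in MEF2C-1, MEF2C-2 and MEF2C-3 and at 84.1, 32.5 and 44.0 CPM in GFP-1, GFP-2 and GFP-3. Card19 (ENSMUSG00000037960, chromosome 13, 49202950 to 49216037, minus strand) stood at 40.7, 77.7 and 92.4 CPM and at 76.7, 35.1 and 45.6 CPM. These 2 genes spanned a narrower range than Ppif or Slc25a1, 2.59-fold for Mff and 2.63-fold for Card19, on counts of 102 or more in every library.

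Of the genes outside mitochondria, H13 (ENSMUSG00000019188, chromosome 2, 152669461 to 152708670, plus strand) stood at 8.29, 20.7 and 31.5 CPM in MEF2C-1, MEF2C-2 and MEF2C-3 and at 31.1, 7.98 and 11.9 CPM in GFP-1, GFP-2 and GFP-3. H1f0 (ENSMUSG00000096210, chromosome 15, 79028450 to 79030504, plus strand) stood at 25.4, 44.3 and 64.6 CPM and at 66.1, 21.4 and 27.8 CPM. In both, MEF2C-3 and GFP-1 were within a few percent of each other and MEF2C-2 lay between them and the low libraries, as in Ppif. Rbm38 (ENSMUSG00000027510, chromosome 2, 173020498 to 173034734, plus strand) stood at 40.2, 102 and 96.3 CPM and at 115, 37.3 and 54.1 CPM. MEF2C-2 was above MEF2C-3 for Rbm38, which held for no other member. Riok3 (ENSMUSG00000024404, chromosome 18, 12128741 to 12157387, plus strand) stood at 43.5, 61.0 and 78.2 CPM and at 67.3, 33.5 and 40.0 CPM, the narrowest range of the 10 genes at 2.33-fold.

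**Figure D1:**
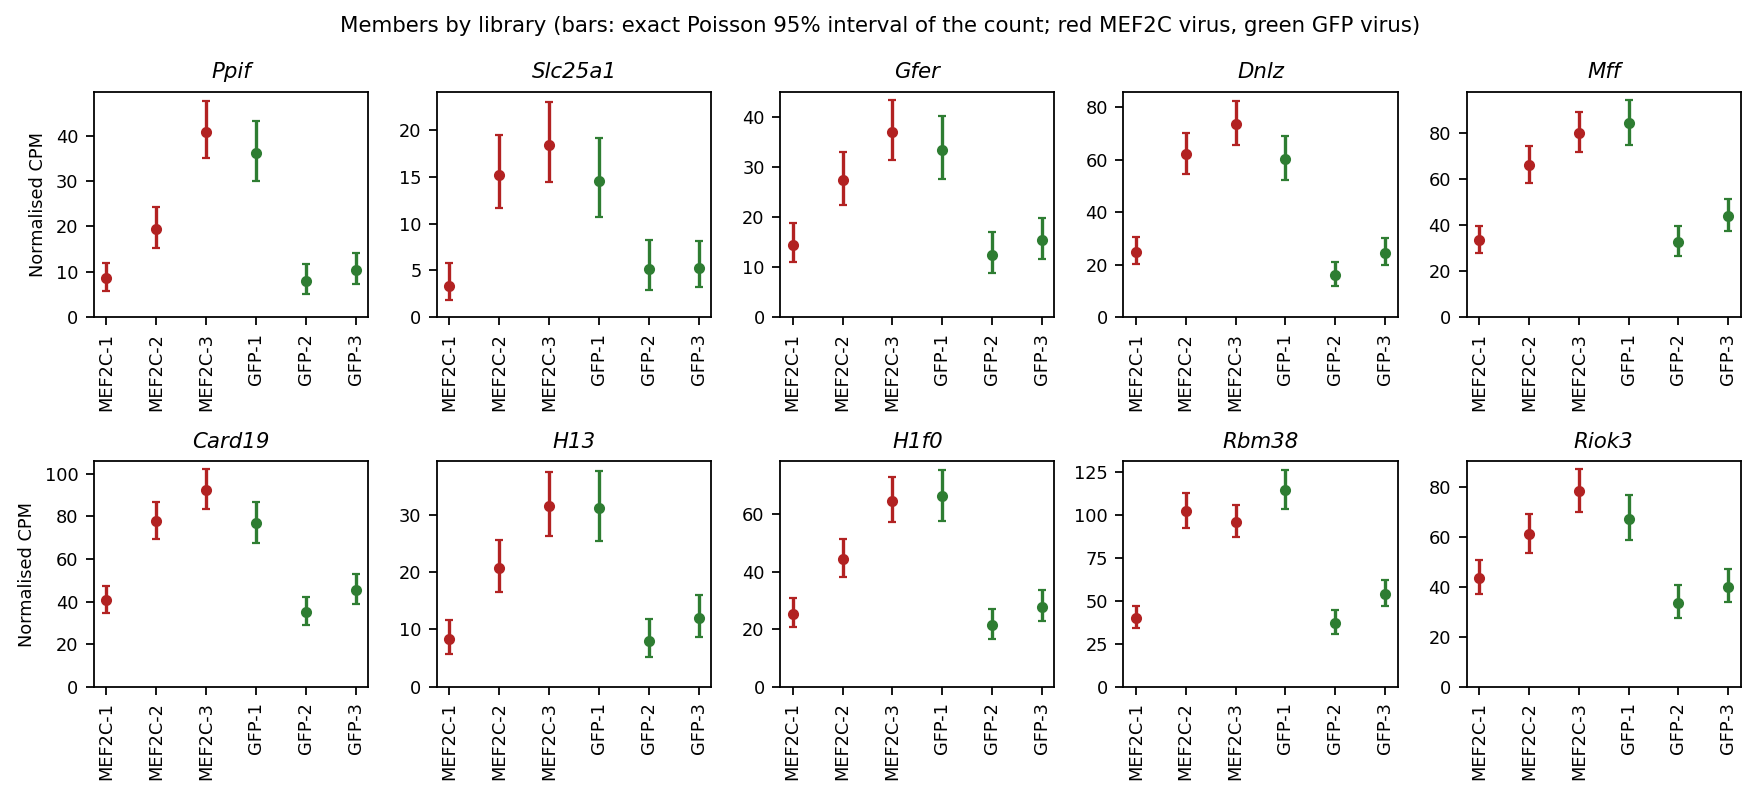
Normalised CPM (vertical axis, linear from 0) of each of the 10 genes in the 6 libraries (horizontal axis), with exact Poisson 95% intervals of the counts as bars. In every panel MEF2C-2, MEF2C-3 and GFP-1 lie above MEF2C-1, GFP-2 and GFP-3, and both virus groups hold high and low libraries.

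The counting error of the levels differed between the genes, and it is given here as a description, since the genes were chosen on these values. For H13 it filled almost the whole gap: the exact Poisson 95% interval reached up to 16.0 CPM in GFP-3 and began at 16.5 CPM in MEF2C-2. For Ppif these bounds were 14.1 CPM in GFP-3 and 15.4 CPM in MEF2C-2, and for Riok3 50.6 CPM in MEF2C-1 and 53.6 CPM in MEF2C-2. The bounds lay farther apart for Dnlz, at 30.4 CPM in MEF2C-1 and 52.2 CPM in GFP-1. Riok3 had the smallest gap, 1.40-fold from 43.5 CPM in MEF2C-1 to 61.0 CPM in MEF2C-2. These intervals cover counting error only: the protocol names no molecular identifiers, so PCR copies may have been counted as reads.

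The order of the libraries was found in many genes outside the 10. Of all tested genes, 9.1% (840 of 9229) had each of MEF2C-2, MEF2C-3 and GFP-1 above each of MEF2C-1, GFP-2 and GFP-3, and all 10 members have it by choice. The reversed order was found in 6.82% (629 genes). A gap at least as wide as that of Riok3 was found in 1.08% (100 genes, the members included). Library scaling moved these shares: with library totals in place of TMM 1385 genes had the order and 181 the reverse, with library sizes without the 50 most abundant genes 1024 and 399, and with DESeq2 size factors 735 and 763. After a correction of each library on transcript length the numbers were 637 and 828, and after one on GC content 647 and 904. All 10 members had the order under each of these 5 settings, which wide gaps by choice largely fix.

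The 10 genes differed in size of swing but little in shape. Relative to each gene's own mean over the 6 libraries on the log2 scale, the members averaged 0.82 in MEF2C-3, 0.71 in GFP-1 and 0.43 in MEF2C-2, and -0.45 in GFP-3, -0.68 in MEF2C-1 and -0.83 in GFP-2, while the median of all tested genes was between -0.01 and 0.02 in every library. MEF2C-3 was the highest library for 7 members and GFP-1 for Mff, H1f0 and Rbm38. GFP-2 was the lowest for 9 members, with Slc25a1 the exception. Among the high libraries MEF2C-2 was the lowest for 6 members, and among the low libraries GFP-3 was the highest for 8.

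**Figure D2:**
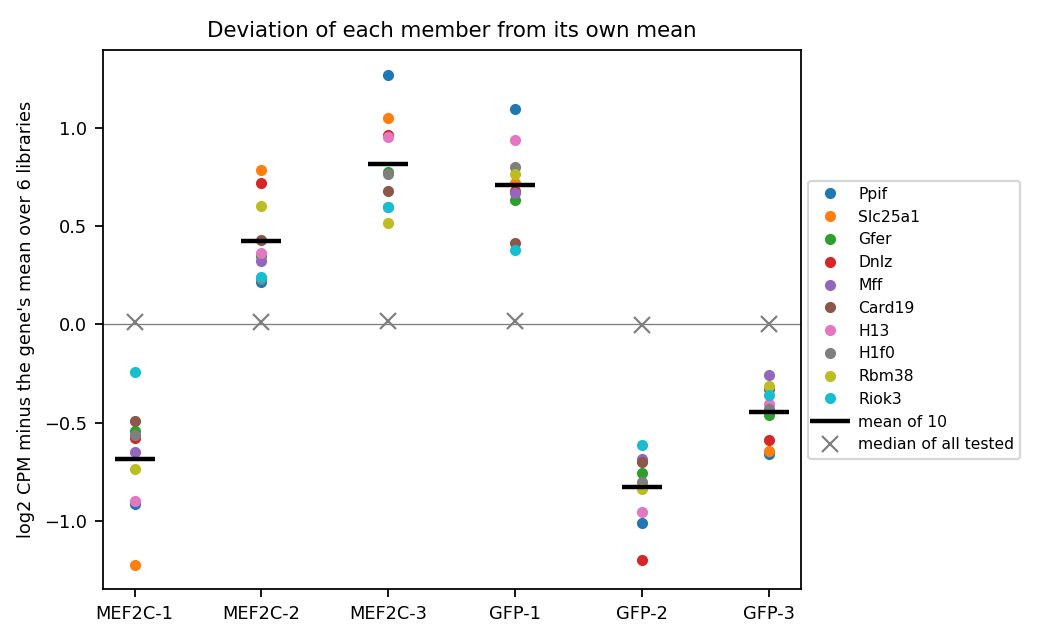
Log2 CPM of each member minus its own mean over the 6 libraries (vertical axis) by library (horizontal axis); black dashes are the mean of the 10 members and grey crosses the median of all tested genes. The means run from -0.83 in GFP-2 to 0.82 in MEF2C-3, while the crosses stay between -0.01 and 0.02.

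Across the 6 libraries the members' log2 CPM had a median Pearson r of 0.96 over the 45 pairs (median Spearman rho 0.89), which the choice of genes fixes in large part, since the libraries form 2 sets. The pair with the highest r was Mff and H13 (0.997), and the pair with the lowest was Slc25a1 and Riok3 (0.90). The r of each member to the mean of the other 9 lay between 0.95 for Slc25a1 and 0.997 for Gfer. Among the other tested genes 71 (0.770%) had an r to the members' mean of at least 0.95, and the median r was 0.02. All points share the same 6 libraries, their depth and their composition.

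The same values give a wide spread within each virus group. The within-group standard deviation on the log2 scale was between 0.47 for Riok3 and 1.11 for Ppif, with a member median of 0.77, against a median of 0.26 over all tested genes, and 15.1% of tested genes had one of at least 0.47. Dnlz, for example, averaged 53.5 ± 25.4 CPM with the MEF2C virus and 33.6 ± 23.4 CPM with the GFP virus (SD, n = 3 per group). Rbm38 averaged 79.6 ± 34.3 against 68.7 ± 40.7 CPM (SD, n = 3 per group). In both genes the difference between group means was smaller than the SD of either group.

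Because 2 of the 3 high libraries carried the MEF2C virus, the choice of genes also fixes that the fitted differences between MEF2C and GFP lean upward. The log2 fold changes were between 0.16 ± 0.50 (SE) for Mff and 0.67 ± 0.69 (SE) for Dnlz, with a member median of 0.36 against 0.01 over all tested genes. By edgeR, 0 of 10 members were called at an adjusted p under 0.05, where 0.0758% of all tested genes (7 of 9229) were. DESeq2 also called 0 members, and 22 of all 9229 tested genes. No member had an unadjusted edgeR p below 0.05, where 5.71% of all tested genes did. Nothing is read from these counts, since the rule used the same libraries. Without MEF2C-3 the log2 fold change of Ppif was -0.37, of H13 -0.23, of H1f0 -0.14 and of Mff -0.11. Without GFP-2 the same 4 genes and Rbm38 were negative, from -0.10 for Mff to -0.01 for Ppif, with Rbm38 at -0.08, and Rbm38 was also negative without MEF2C-2 (-0.01). Without GFP-1 all 10 were larger, from 0.63 for Mff to 1.38 for Dnlz.

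What the genes share apart from their levels was examined in the annotation (GENCODE vM21, GRCm38). All 10 are protein-coding and lie on 8 chromosomes, with Dnlz, H13 and Rbm38 on chromosome 2 but far apart. Their longest transcripts ran from 937 bases for Card19 to 5204 for H13, with a median of 2599 against 3302 over all tested genes. The GC content of these transcripts was 55.1% at the median against 49.4%, and 8 of 10 were above the median of all tested genes; Mff (37.3%) and Riok3 (40.6%) were below. Over all tested genes, the share with the members' order was 6.76% in the lowest quartile of GC content and 12.5% in the highest, and 6.45% in the quartile of shortest transcripts and 11.4% in that of the longest. By abundance it was 10.6% in the lowest quartile of mean count and 5.16% in the highest, where 6 of the 10 members lie.

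**Figure D3:**
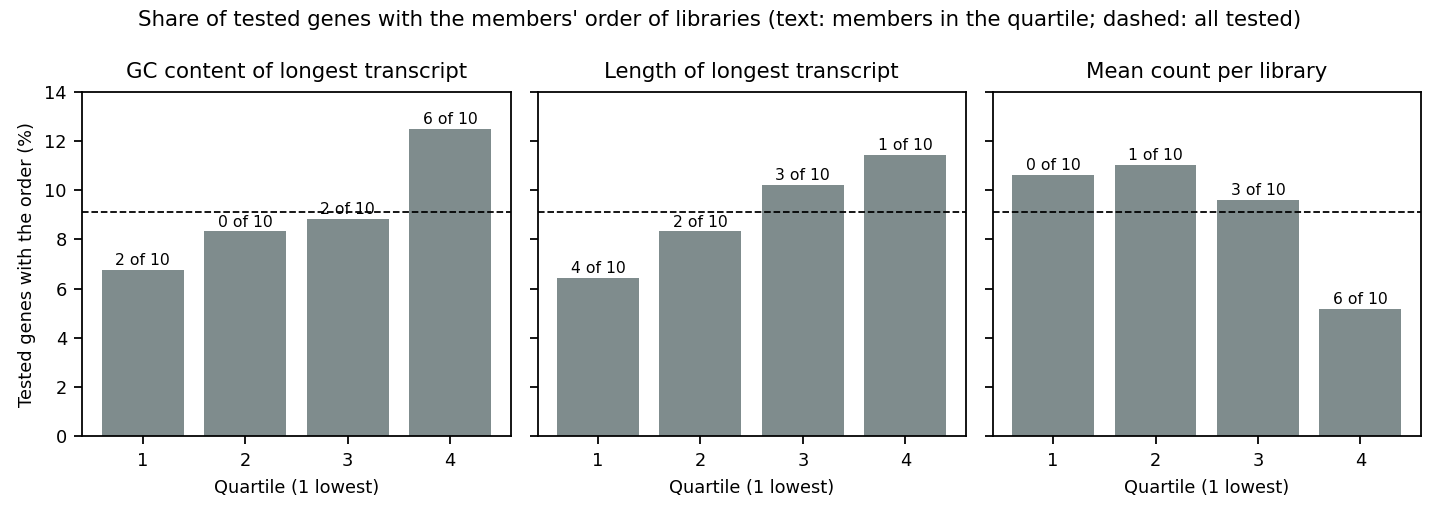
Share of tested genes with the members' order of libraries (vertical axis, percent) by quartile of GC content, of transcript length and of mean count (horizontal axes); the dashed line is the share over all tested genes, and the text on each bar is the number of members in that quartile. The share runs from 6.76% to 12.5% with GC content and from 6.45% to 11.4% with length, and is 5.16% in the most abundant quartile.

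The libraries themselves differed with transcript length and GC content. In the longest quartile, with 1 of the 10 members, the median gene stood at 0.15 in MEF2C-3 and 0.11 in GFP-1 above its own mean on the log2 scale. It stood at -0.04 in MEF2C-2, -0.02 in MEF2C-1, -0.06 in GFP-3 and -0.07 in GFP-2. The shortest quartile, with 4 members, stood at -0.07 in MEF2C-3 and in GFP-1 and at 0.05 in MEF2C-2. It stood at 0.04 in MEF2C-1, 0.02 in GFP-2 and 0.04 in GFP-3. The highest quartile of GC content, with 6 members, stood at 0.05 in MEF2C-2, 0.01 in MEF2C-3 and 0.05 in GFP-1. It stood at -0.06 in MEF2C-1, 0.002 in GFP-2 and -0.01 in GFP-3. After the correction on length the 10 gaps had a median of 0.78 on the log2 scale and after that on GC content 0.70, against 0.81 without correction. The genes were chosen for wide gaps, so these values are a description, and the part of length and GC content in the members' order was not tested.

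Some members overlap other annotated genes, and whether the counting used strand is not stated in the labels. H13 contains Mcts2, a gene on the same strand at 152687035 to 152687946, which had 55, 49 and 52 counts in MEF2C-1, MEF2C-2 and MEF2C-3 and 39, 56 and 58 in GFP-1, GFP-2 and GFP-3. Mcts2 had the reverse of the order of its host over a narrow range. Its counts were 55, 56 and 58 in MEF2C-1, GFP-2 and GFP-3, where H13 was low. They were 49, 52 and 39 in MEF2C-2, MEF2C-3 and GFP-1, where H13 was high. How reads from the shared stretch were assigned is not stated, and their part in the H13 values was not tested. Dnlz overlaps Gpsm1 on the opposite strand, which had between 1 and 4 counts. Other transcripts on the opposite strand are annotated at Ppif (Ppifos), Mff (C430014B12Rik), H13 (Gm26841), H1f0 (Gm49544) and Rbm38 (Gm14453 and Gm20490). Their reads cannot be told apart from those of the members without strand. Mff also holds Gm28941, an intronic transcript on its own strand. None of these transcripts is among the gene rows.

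Promoter sequences are shown as a description. The members' levels move together largely by the choice of genes, and shared control through their promoters was not tested. RefSeq promoters (GRCm38.p6; 250 bases before to 50 after a start) were matched for 9 of the 10 members, all but Riok3, with 2 starts for Mff. The 4 shown are those of Slc25a1, with the widest gap and 4 GC boxes, Ppif, with 3 kinds of motif, and Dnlz and Rbm38, which lack the GC box. They are written 5′ to 3′ on the strand of the gene, with capitals marking matches on either strand to the GC box (GGGCGG), the CCAAT box (CCAAT), the ETS site (CCGGAAG) and the E-box (CACGTG). No 2 matches overlap.
Slc25a1, chr16:17928170-17928469, minus strand: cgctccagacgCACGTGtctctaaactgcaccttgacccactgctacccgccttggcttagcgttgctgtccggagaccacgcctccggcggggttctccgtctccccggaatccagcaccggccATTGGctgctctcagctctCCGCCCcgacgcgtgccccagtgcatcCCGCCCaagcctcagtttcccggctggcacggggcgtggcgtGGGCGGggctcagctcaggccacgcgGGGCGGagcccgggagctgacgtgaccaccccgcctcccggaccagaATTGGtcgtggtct
Ppif, chr14:25693920-25694219, plus strand: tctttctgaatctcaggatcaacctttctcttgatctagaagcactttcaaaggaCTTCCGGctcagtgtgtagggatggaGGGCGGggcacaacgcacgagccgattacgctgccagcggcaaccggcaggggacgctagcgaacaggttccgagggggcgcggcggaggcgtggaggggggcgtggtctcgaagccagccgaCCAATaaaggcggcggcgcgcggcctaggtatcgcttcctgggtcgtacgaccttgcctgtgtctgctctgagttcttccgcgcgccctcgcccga
Dnlz, chr2:26352061-26352360, minus strand: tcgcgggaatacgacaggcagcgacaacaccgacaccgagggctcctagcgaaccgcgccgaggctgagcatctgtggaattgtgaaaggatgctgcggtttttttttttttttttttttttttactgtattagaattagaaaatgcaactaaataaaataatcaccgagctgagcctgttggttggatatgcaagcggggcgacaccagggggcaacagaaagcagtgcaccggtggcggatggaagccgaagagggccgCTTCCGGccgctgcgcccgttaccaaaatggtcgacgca
Rbm38, chr2:173021652-173021951, plus strand: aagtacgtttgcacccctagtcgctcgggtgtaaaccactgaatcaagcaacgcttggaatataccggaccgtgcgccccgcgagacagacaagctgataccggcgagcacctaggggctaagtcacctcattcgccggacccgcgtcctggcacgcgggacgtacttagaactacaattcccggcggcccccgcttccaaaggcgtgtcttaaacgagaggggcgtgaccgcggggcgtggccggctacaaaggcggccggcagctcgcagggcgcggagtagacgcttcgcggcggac

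None of the searched motifs was found in every member promoter. The GC box was in the promoters of 7 of the 9 genes, against 62.6% of the 9404 promoters of tested genes and 35.7% of all 32851 RefSeq promoters of this length. The CCAAT box was in 3 genes (Mff, Ppif and Slc25a1), where 37.5% of the promoters of tested genes hold it, and the ETS site in Ppif and Dnlz, where 18.3% do. The E-box was in Slc25a1 (10.3% of promoters of tested genes). The NRF1 core (GCATGCG), the YY1 site (AAGATGGCG), the GATA site (AGATAA), the TATA box (TATAAA), the CRE (TGACGTCA), the HSF pair (GAANNTTC) and 1 form of the MEF2 site (CTATTTATA) were in none of the 10 windows, where they are in 6.58%, 3.39%, 6.17%, 7.48%, 3.04%, 5.78% and 0.425% of the promoters of tested genes. The 10 windows had a median GC content of 63.3% and 29 CpG, against 60.7% and 20 for promoters of tested genes. A match is a run of letters, and a missing one says only that these letters are not in this window.

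The members' order was about as common on the pathway lists as among all tested genes. Besides genes around each member, these lists hold respiratory chain, mitochondrially encoded, and immediate early and stress-responsive genes. Of 199 tested genes on the pathway lists 21 (10.6%) had the order, against 9.1% of all tested genes. By edgeR 0 of the 199 were called between MEF2C and GFP, where 0.0758% of all tested genes were. Before adjustment 15 of the 199 had an edgeR p below 0.05, where 5.71% of all tested genes did. DESeq2 called 22 of all 9229 tested genes. Its calls on these lists were Cdkn1a and Txnip, both higher with the MEF2C virus and chosen after their values were seen. Their DESeq2 adjusted p were 0.0248 and 0.00388, and their edgeR adjusted p 0.443 and 0.659. The median log2 fold change of these 199 genes was 0.02, and that of all tested genes 0.01.

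Among the partners of Ppif at the permeability pore and inner membrane, 2 of 14 had the order and 5 the reverse. Over all tested genes 9.1% had the order and 6.82% the reverse. The 2 were Letm1 and Tspo, each with a gap of 0.14 or less on the log2 scale. Vdac2, the outer membrane channel, was among the genes least like the members: it stood at 464, 399 and 380 CPM in MEF2C-1, MEF2C-2 and MEF2C-3 and at 392, 478 and 472 CPM in GFP-1, GFP-2 and GFP-3. Its high and low libraries are those of Ppif exchanged, over a much narrower range.

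Around Slc25a1, 6 of 16 genes (37.5%) of citrate export and lipid synthesis had the order and 3 the reverse. Over all tested genes these shares were 9.1% and 6.82%. Me1, malic enzyme, which yields NADPH for lipid synthesis, stood at 23.1, 74.5 and 49.9 CPM in MEF2C-1, MEF2C-2 and MEF2C-3 and at 46.8, 31.6 and 32.3 CPM in GFP-1, GFP-2 and GFP-3. Fasn, fatty acid synthase, stood at 22.3, 116 and 78.4 CPM and at 50.7, 46.9 and 30.7 CPM. For both, and for Acaca, the acetyl-CoA carboxylase, MEF2C-2 was the highest library, which it was for no member. The other 3 with the order were Srebf1, the lipogenic transcription factor, and, chosen after their values were seen, Acss2 and Slc25a10. Adipocyte markers, which overlap with this programme in function, summed to 1445 CPM in MEF2C-2 and 903 in MEF2C-3 but to 478 CPM in GFP-1, the lowest of the 6 libraries, and 0 of their 7 tested genes had the order; their part in the lipid gene values was not tested.

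In the disulfide relay that Gfer serves, 1 of 18 genes had the order, which 9.1% of all tested genes had. This was Chchd10, a small protein of the intermembrane space, at 91.5, 131 and 859 CPM in MEF2C-1, MEF2C-2 and MEF2C-3 and at 887, 78.2 and 86.1 CPM in GFP-1, GFP-2 and GFP-3. MEF2C-3 and GFP-1 stood far above all others, and MEF2C-2 was near the low libraries, unlike Gfer. In the import motor list around Dnlz 2 of 21 genes had the order, Tomm40 and Timm50, and in the fission and fusion list around Mff 1 of 14, Pgam5, a mitochondrial phosphatase. Pgam5 stood at 5.96, 14.4 and 15.7 CPM in MEF2C-1, MEF2C-2 and MEF2C-3 and at 14.5, 7.02 and 9.28 CPM in GFP-1, GFP-2 and GFP-3, a gap of 0.64 on the log2 scale.

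The lists around Card19 and the members outside mitochondria held at most 1 gene each with the order, which 9.1% of all tested genes had. In the list of intramembrane proteolysis around H13 1 of 15 genes had the order, Rnf139, and in the RIO kinase and ribosome assembly list around Riok3 1 of 12, Bysl. Among p53-network and RNA-binding genes around Rbm38 it was 1 of 14, Mdm2, on counts of 5 to 16. In the linker histone and chromatin list 0 of 12 had it, and in the list of caspase recruitment signalling 0 of 7. Hist1h1e, another linker histone, stood at 15.0, 12.2 and 11.6 CPM in MEF2C-1, MEF2C-2 and MEF2C-3 and at 14.5, 3.83 and 6.10 CPM in GFP-1, GFP-2 and GFP-3, so that MEF2C-1 was its highest library and not a low one as for H1f0.

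Respiratory chain genes had the reverse order more often than the members' order. Of 29 nuclear-encoded genes 3 (10.3%) had the order, near the 9.1% of all tested genes. The reverse was found in 11 of the 29, where 6.82% of all tested genes had it. Of 13 mitochondrially encoded proteins 0 had the order and 1 the reverse. Uqcrfs1, the Rieske iron-sulfur subunit of complex III, stood at 129, 445 and 538 CPM in MEF2C-1, MEF2C-2 and MEF2C-3 and at 539, 78.5 and 225 CPM in GFP-1, GFP-2 and GFP-3, with between 246 and 2222 reads. Uqcrc2, a core subunit of the same complex, stood at 516, 433 and 394 CPM and at 408, 516 and 497 CPM, the opposite order. These 2 subunits of 1 complex were named for their orders, so nothing is read from their contrast. Uqcrfs1 had the widest gap on its list, and Uqcrc2 was the named gene least like the members. By the counts above, most genes on these respiratory chain lists did not have the members' order.

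**Figure D4:**
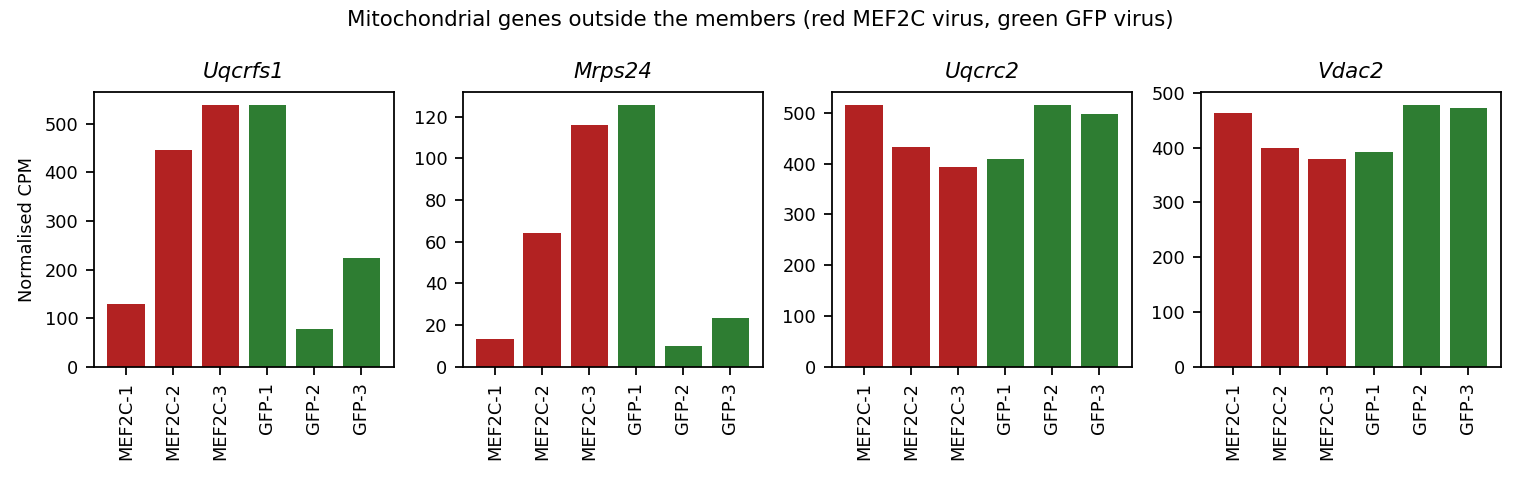
Normalised CPM (vertical axis, from 0) of 4 mitochondrial genes outside the 10 in the 6 libraries (horizontal axis). Uqcrfs1 and Mrps24 are high in MEF2C-2, MEF2C-3 and GFP-1, and Uqcrc2 and Vdac2 are low in those libraries over a narrower range.

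By likeness to the members' mean profile over the 6 libraries (Pearson r of log2 CPM, genes with a mean of at least 50 counts), the closest other genes were Sept11, Mrps24, Slc25a39, Imp3, Tsnax, Ptpn11, Fbxw11, Copz2, Kifap3 and Gemin7, with r between 0.97 and 1.00, and all 10 had the order. Mrps24, a protein of the mitochondrial ribosome, swung more than any member: it stood at 13.2, 64.2 and 116 CPM in MEF2C-1, MEF2C-2 and MEF2C-3 and at 126, 10.2 and 23.3 CPM in GFP-1, GFP-2 and GFP-3. Imp3, a small nucleolar ribonucleoprotein component of ribosome assembly, stood at 6.22, 16.9 and 32.4 CPM and at 31.7, 6.06 and 8.75 CPM. Slc25a39 is, like Slc25a1, a carrier of the mitochondrial inner membrane, with a gap of 0.61 on the log2 scale. Sept11, by contrast, matched in shape with a gap of only 0.28.

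The genes least like the members were Uqcrc2, Acad8, Rpl10, Rpl4 and Vdac2, with r between -0.99 and -0.98. Rpl10, a protein of the large ribosomal subunit, stood at 1164, 932 and 857 CPM in MEF2C-1, MEF2C-2 and MEF2C-3 and at 888, 1128 and 1071 CPM in GFP-1, GFP-2 and GFP-3. Its highest library was 1.36 times its lowest. The widest range among these 5 genes was 1.46-fold, for Acad8, an acyl-CoA dehydrogenase, where every member spanned at least 2.33-fold.

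Markers of other cell types were compared with the members library by library. Of 9 fibroblast genes 5 (55.6%) had the members' order, where 9.1% of all tested genes had it. They were Pdgfra, Col1a1, Col1a2, Col3a1 and Gsn, chosen after their values were seen. Col3a1, a fibrillar collagen, stood at 209, 632 and 608 CPM in MEF2C-1, MEF2C-2 and MEF2C-3 and at 614, 475 and 441 CPM in GFP-1, GFP-2 and GFP-3. The fibroblast list summed to 3872, 5109 and 4846 CPM and to 5194, 4532 and 4354 CPM in the same libraries, the members' order over a range of 1.34-fold; Dcn, at 943 to 1159 CPM, did not have it. The part of these cells in the members' values was not tested.

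**Figure D5:**
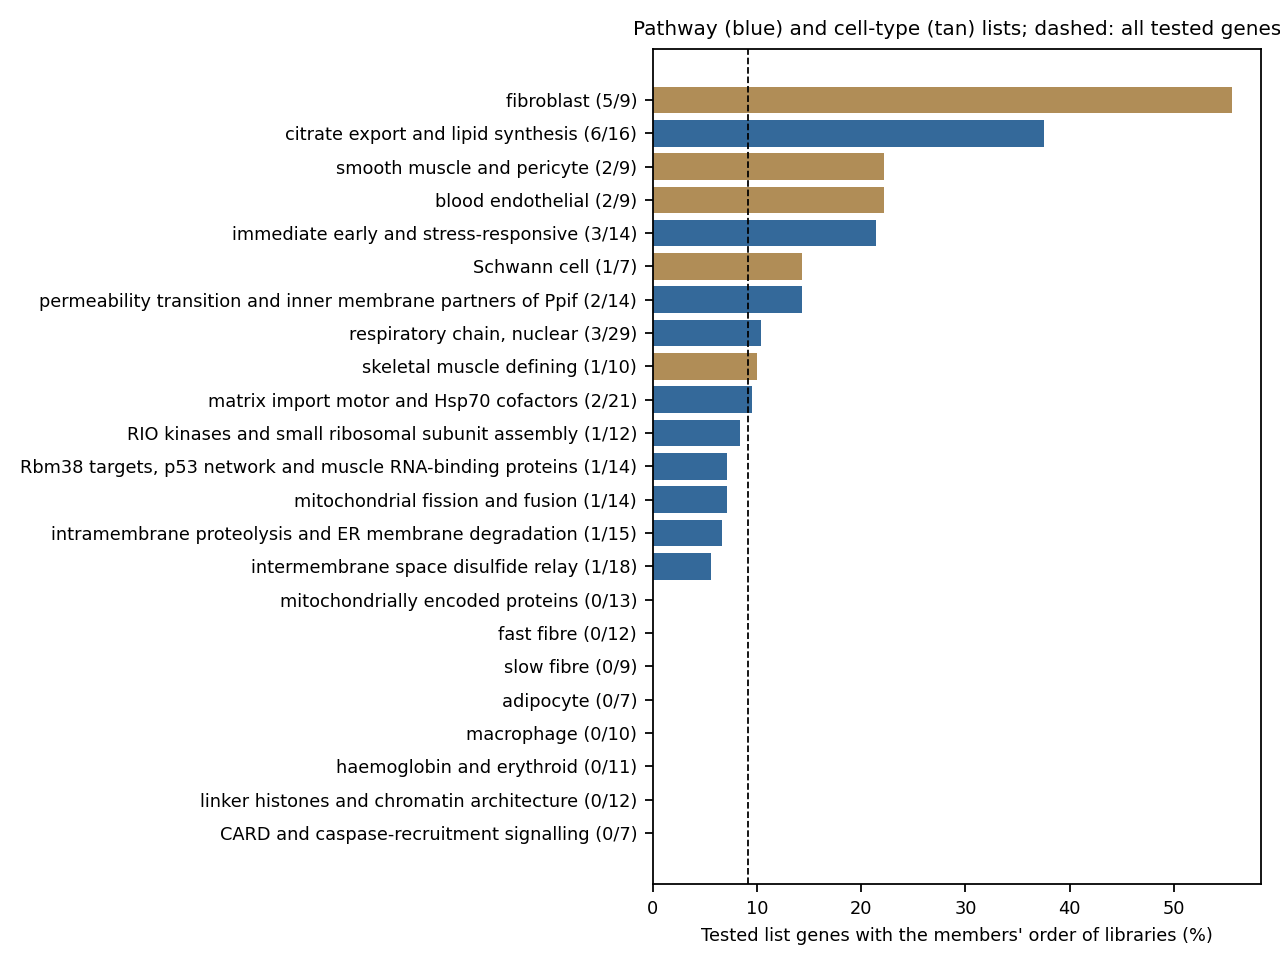
Share of tested genes with the members' order of libraries (horizontal axis, percent) for each list with at least 5 tested genes (vertical axis, number with the order over number tested); the dashed line is the share over all tested genes. The fibroblast list (5 of 9) and the list of citrate export and lipid synthesis (6 of 16) have the highest shares, and 8 lists have none.

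Blood, granulocyte and fibre markers did not rank the libraries as the members did. The haemoglobin and erythroid list summed to 8993 CPM in MEF2C-1, where the members were low, and to 3439 CPM in GFP-2, where they were also low, with 4034 to 5153 CPM in the other 4 libraries, and 0 of its 11 tested genes had the order. The 9 neutrophil markers summed to 1264 CPM in MEF2C-1 and 79.5 in GFP-3, both low libraries, but to 3.51 CPM in GFP-2, the third, and to 4.15 to 7.72 in the high libraries. The slow-fibre sums given above were highest in MEF2C-1 and MEF2C-2, a low and a high library, and 0 of 9 slow-fibre and 0 of 12 fast-fibre genes had the order. Macrophage, smooth muscle, endothelial and Schwann cell lists had it in 0 of 10, 2 of 9, 2 of 9 and 1 of 7 tested genes. The muscle-defining genes had it in 1 of 10. Over all tested genes the share was 9.1%, below the 22.2% of the smooth muscle and of the endothelial list.

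Of 14 immediate early and stress-responsive genes, 3 (21.4%) had the order, which 9.1% of all tested genes had: Egr1, Jun and Myc. Jun, a subunit of the AP-1 transcription factor, stood at 23.1, 31.4 and 51.1 CPM in MEF2C-1, MEF2C-2 and MEF2C-3 and at 40.6, 18.5 and 16.4 CPM in GFP-1, GFP-2 and GFP-3. Egr1 had 3, 25 and 36 reads and 9, 5 and 5 reads in the same libraries, too few to rank GFP-1 firmly above the low libraries. Their edgeR adjusted p between MEF2C and GFP were 0.993 for Jun and 0.93 for Egr1.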

How the data were processed

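Oxford Nanopore PCR-cDNA libraries were made from 1 µg of total RNA of frozen tissue, per the labels' protocols. The deposited read counts per gene are whole numbers and entered the fit unchanged. The deposited CPM served only to recover the totals behind them, of which the listed counts were 95.6% to 96.4%. The submitters' processing notes name minimap2, DESeq2 1.6.3 and the build GRCm38 but give none of them a role. Not given in the sources used here are the counting tool, the handling of strand and any filter. The 30 rows naming no gene held 0 counts and were left out.

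The comparison of MEF2C with GFP was fitted on the whole table with edgeR 4.0.16 in R 4.3.3 (filter by group, TMM, robust quasi-likelihood test, Benjamini-Hochberg adjustment, adjusted p under 0.05, no covariate), after a test on simulated data. Normalised CPM use TMM-scaled listed totals, and log2 CPM a prior count of 2. Length and GC content are those of the longest transcript in GENCODE vM21, found for all 9229 tested genes. Intervals are exact Poisson at 95%. Pairs of libraries of a group differed by more than sampling noise (chi-square per degree of freedom 5.40 to 11.5). No label calls the replicates separate animals, so a p-value reflects the spread among these libraries, which may be technical.

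The members and lists were chosen with earlier results of these data known. Named genes were the 10 members, the 10 genes most and 5 least like their mean profile, and up to 4 genes per pathway list, those with the members' order first (largest gap first), otherwise those with the smallest p. Label, tissue and overlapping genes were also named. Alternatives were other scalings (DESeq2 1.42.0 size factors, totals, no 50 most abundant genes), filters, tests, a replicate block, prior count, loess corrections (span 0.3) and leaving out each library.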

Additional observations from a re-analysis of the deposited data

How the results depend on the processing

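All 10 members had the order of libraries under the 5 other scalings and corrections, with gaps from 0.48 to 1.51 on the log2 scale, which their choice for wide gaps largely fixes. Their log2 fold changes between MEF2C and GFP moved with single libraries, that of Ppif from 0.34 to -0.37 without MEF2C-3 and to 1.31 without GFP-1, and 5 of the 10 genes turned negative without at least 1 library. The median r between members was 0.94 to 0.98 under the scalings, the loess corrections, the prior count of 0.5 and each library left out. The 840 genes with the order became 1385 with library totals, where the median gene moved to -0.15 in GFP-2 and 0.13 in MEF2C-3 on the log2 scale; the cause was not tested beyond that shift. Leaving out a library, with the order asked of the other 5 (chosen after seeing the data), gave 1166 (without MEF2C-3) to 1678 genes (without MEF2C-2), since fewer libraries must be in order; without MEF2C-1 it was 1366 and without GFP-3 1283. The share in the members' direction, of genes with either order, was 57.2% with TMM, 88.4% with totals, 72.0% without the 50 most abundant genes, 49.1% with DESeq2 size factors, 43.5% after the length and 41.7% after the GC correction.

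The 7 genes called between MEF2C and GFP (3 higher, 4 lower) became 4 without the 50 most abundant genes (1 higher), 3 with the strict filter (1 higher), 35 with no filter (20 higher), 22 with the DESeq2 Wald test (14 higher) and 0 with non-robust dispersion, where 557 had an unadjusted p under 0.05; library totals gave 6 (4 higher). Leaving out a library gave 0 (without GFP-3, with 386 at an unadjusted p under 0.05) to 22 (without MEF2C-3), with 3 without MEF2C-1, 1 without MEF2C-2, 2 without GFP-1 and 2 without GFP-2. With the replicate number as a block 2 were called (2 higher). The deviations of same-numbered libraries from their group means correlated at -0.23, 0.05 and -0.25 for numbers 1, 2 and 3. The highest correlation across groups was between MEF2C-3 and GFP-1 (0.32), and no MEF2C library correlated best with its own number. Deviations within so small a group are tied to each other, so these values cannot settle whether the numbers pair the libraries. No member was called under any of these settings. The causes were not tested. Counts of 13 to 411 per member and library limit the precision of each level, most for Slc25a1.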
